A study of Mus musculus with 2 samples.

Results

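The miRNA genes of the Mir302-Mir367 cluster on mouse chromosome 3 and of the Mir290 to Mir295 cluster on chromosome 7 were examined in the neural tube of the mouse embryo, from which brain and spinal cord form. The members were taken by gene symbol in GENCODE M21. They are 10 of the 1973 miRNA genes counted: Mir302a, Mir302b, Mir302c, Mir302d and Mir367, and Mir290a, Mir291a, Mir293, Mir294 and Mir295. The libraries came from neural tube of strain B6NCrl at 12.5 days of embryonic development, with no genetic change or treatment named. Replicate 1 was a pool of 120 embryos and replicate 2 a pool of 88, each of mixed sex, so differences between single embryos are averaged out. There is 1 group of 2 libraries, and hence no comparison between conditions.

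Both clusters belong to the miRNAs best known from embryonic stem cells, where they promote passage through the cell cycle and help maintain the pluripotent state. The Mir290 to Mir295 cluster is the dominant miRNA cluster of mouse embryonic stem cells and is also active in the early embryo, the trophoblast and germ cells. The Mir302-Mir367 cluster becomes active in the epiblast, the tissue that gives rise to the embryo, and mouse embryos without it have defects of neural tube closure. A miRNA finds its target mRNAs mainly through its seed, the bases 2 to 8 from the 5′ end. Mir367 is transcribed with the Mir302 genes but carries a different seed, that of the Mir25 and Mir92 genes.

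The mature arms show how closely the members resemble each other. The sequences are those of RefSeq on GRCm38.p6, written 5′ to 3′ with the seed in capitals, for the 3p arms of 9 members and the 5p arm of Mir302a. The arms of Mir17 and of Mir92-1, which belong to neither cluster, are shown last because their seeds are compared with those of the members further on.
miR-302a-5p: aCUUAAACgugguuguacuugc
miR-302b-3p: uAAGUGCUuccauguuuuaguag
miR-302c-3p: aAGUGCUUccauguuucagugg
miR-302d-3p: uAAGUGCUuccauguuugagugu
miR-367-3p: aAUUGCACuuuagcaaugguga
miR-290a-3p: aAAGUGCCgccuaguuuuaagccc
miR-291a-3p: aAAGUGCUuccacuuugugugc
miR-293-3p: aGUGCCGCagaguuuguagugu
miR-294-3p: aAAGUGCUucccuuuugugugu
miR-295-3p: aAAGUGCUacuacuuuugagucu
miR-17-5p: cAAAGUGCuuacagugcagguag
miR-92a-3p of Mir92-1: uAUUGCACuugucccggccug

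The 3p arm of Mir302a was not analysed here, so Mir302a is left out of every count by 3p seed. Among the arms in the table, the seed AAGUGCU stands on the 3p arms of 5 members: Mir302b and Mir302d on chromosome 3, and Mir291a, Mir294 and Mir295 on chromosome 7. No other gene has an arm with this seed in the RefSeq table. A stretch of 18 bases of miR-302b-3p also stands in the Mir302a hairpin, as do 17 bases of miR-302d-3p. The 3p arm of Mir302c is listed as starting 1 base further along the same stretch, so its bases 2 to 8 read differently. miR-302b-3p and miR-302d-3p have 20 of 23 aligned bases in common, and miR-302b-3p and miR-302c-3p have 20 of 22. miR-302b-3p and miR-294-3p, from the different clusters, have 14 of 22 in common. The 3p seeds of Mir290a (AAGUGCC) and Mir293 (GUGCCGC) stand on no other arm in the RefSeq table. That table holds no 3p arm for Mir292, another gene of the chromosome 7 cluster, so its 3p seed was not compared. A stretch of 11 bases of miR-290a-3p also stands in the Mir292 hairpin.

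By GENCODE M21 on the mm10 assembly, the 5 hairpins of the Mir302-Mir367 cluster span 580 bases of chromosome 3 (127545228 to 127545807). They lie in an intron of Larp7, a gene for an RNA-binding protein of the 7SK complex, on the strand opposite to it. The order along their own strand is Mir302b, Mir302c, Mir302a, Mir302d and Mir367. Hairpins of 4 members are printed with the mature arms in capitals, since the reads of a gene come from either arm.
Mir302b, chr3:127545228-127545301, plus strand: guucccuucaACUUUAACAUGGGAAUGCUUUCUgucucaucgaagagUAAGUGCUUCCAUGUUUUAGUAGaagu
Mir302c, chr3:127545363-127545430, plus strand: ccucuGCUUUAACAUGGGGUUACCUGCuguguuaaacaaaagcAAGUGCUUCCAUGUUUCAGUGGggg
Mir302d, chr3:127545624-127545689, plus strand: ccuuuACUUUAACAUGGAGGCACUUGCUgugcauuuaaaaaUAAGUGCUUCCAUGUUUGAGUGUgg
Mir367, chr3:127545733-127545807, plus strand: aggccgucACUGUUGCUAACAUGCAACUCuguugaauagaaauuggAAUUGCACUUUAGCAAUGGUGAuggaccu

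The Mir290 to Mir295 members span 2216 bases of chromosome 7 (3218626 to 3220841). Mir291a, Mir293, Mir294 and Mir295 lie opposite an untranslated exon of Nlrp12, a gene for an innate immune receptor, while Mir290a overlaps no other gene outside the miRNAs. Mir292 and Mir291b lie between Mir291a and Mir293 and were counted too, though they are not among the 10.

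Reads on a gene's own strand were set against all such reads of their library and expressed per 1000000 of them (CPM). The libraries held 4802411 such reads in replicate 1 and 4422853 in replicate 2. A sequenced read covers a whole mature miRNA, so the values were not divided by gene length, and how evenly different sequences were captured was not measured. A tissue with fewer cells that express a gene and one with less of its RNA per cell cannot be told apart in such bulk samples. Of the 10 members, 8 had at least 1 read and 6 were detected, that is, had at least 10 reads in both libraries. Among all 1973 genes 18.8% were detected, and 37.3% had a read in either library.

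The neural tube libraries held far more reads of the Mir302 genes than of the Mir290 to Mir295 genes. The Mir302-Mir367 cluster had 3406 reads in replicate 1 and 2913 in replicate 2, or 709 and 659 CPM. The Mir290 to Mir295 cluster had 125 and 74 reads, or 26.0 and 16.7 CPM. The clusters thus held 0.0684% ± 0.00358 and 0.00214% ± 0.000657 of the gene reads (SD, n = 2). The ratio of the Mir302-Mir367 cluster to the Mir290 to Mir295 cluster was 27.2 in replicate 1 and 39.4 in replicate 2.

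The libraries were closer to each other when Mir294 was left out. The ratio was then 46.0 in replicate 1 and 50.2 in replicate 2, an alternative chosen after the values were seen. With Mir292 and Mir291b counted the chromosome 7 cluster had 148 reads in replicate 1 and 101 in replicate 2. In both libraries and under each of these counts the Mir302-Mir367 cluster was the higher of the pair by more than 10 times.

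**Figure D1:**
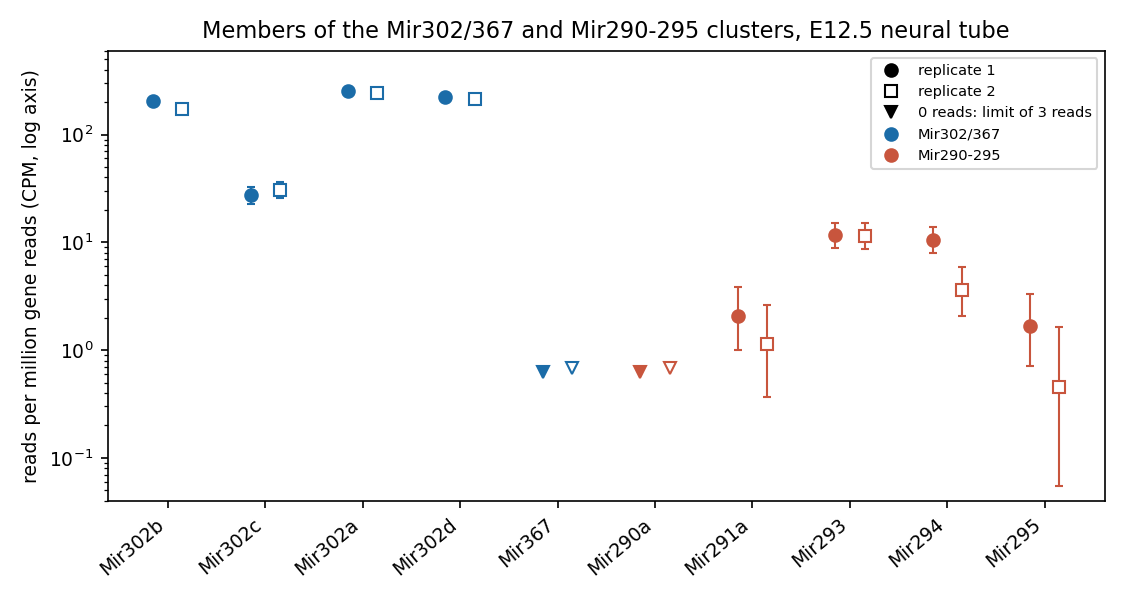
CPM (log axis) of each of the 10 members in replicate 1 (filled circles) and replicate 2 (open squares), with 95% exact binomial intervals of the count. Mir302a, Mir302d and Mir302b lie at or above 173 CPM, Mir302c near 29 CPM and the chromosome 7 members at or below 11.7 CPM, while triangles give the limit of 3 reads for Mir367 and Mir290a, which had no read.

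Within the chromosome 3 cluster, 3 of the Mir302 genes had similar levels. Mir302a, the most abundant, had 1225 reads in replicate 1 and 1067 in replicate 2, that is 255 and 241 CPM (248 ± 9.78, SD, n = 2). Mir302d followed with 1068 and 944 reads, or 222 and 213 CPM (218 ± 6.33). Mir302b had 982 and 767 reads, or 204 and 173 CPM (189 ± 22.0).

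The order Mir302a, Mir302d, Mir302b was the same in both libraries, and the ranges of neighbours in this order did not overlap. With 2 libraries an exact sign permutation cannot go below p = 0.5, so the order is given as a description with no p. The ratio of Mir302a to Mir302d was 1.15 in replicate 1 and 1.13 in replicate 2. The ratio of Mir302d to Mir302b was 1.09 and 1.23, and thus varied more between the libraries. Mir302a and Mir302b share 20 bases of hairpin, Mir302d and Mir302c share that many with none. Multimapping reads, which fit several places in the genome, enter no gene's count, and their part in these ratios was not tested.

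Mir302c was far below its neighbours on the same transcript. It had 131 reads in replicate 1 and 135 in replicate 2, or 27.3 and 30.5 CPM (28.9 ± 2.29, SD, n = 2). Mir302a exceeded it 9.35-fold in replicate 1 and 7.90-fold in replicate 2. Mir302c lies between Mir302b and Mir302a, so the levels did not fall or rise steadily along the cluster. As a share of the cluster's reads, Mir302a held 36.3% ± 0.469, Mir302d 31.9% ± 0.742, Mir302b 27.6% ± 1.77 and Mir302c 4.24% ± 0.557 (SD, n = 2).

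Mir367, the last hairpin of the cluster, had 0 reads in both libraries. A count of 0 allows up to 0.625 CPM in replicate 1 and 0.678 CPM in replicate 2, taking 3 reads as a one-sided limit. The two-sided exact binomial interval reaches 0.768 and 0.834 CPM. As a share of the cluster's reads it allows up to 0.0881% and 0.103%. Set against 3 reads per library, Mir302a was at least 356-fold higher and Mir302c at least 43.7-fold higher than Mir367. The longest stretch of miR-367-3p present in the hairpin of another annotated miRNA gene was 9 bases, and that of miR-367-5p was 10 bases. Copies elsewhere in the genome were not searched, and the part of multimapping reads in the count of 0 was not tested.

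**Figure D2:**
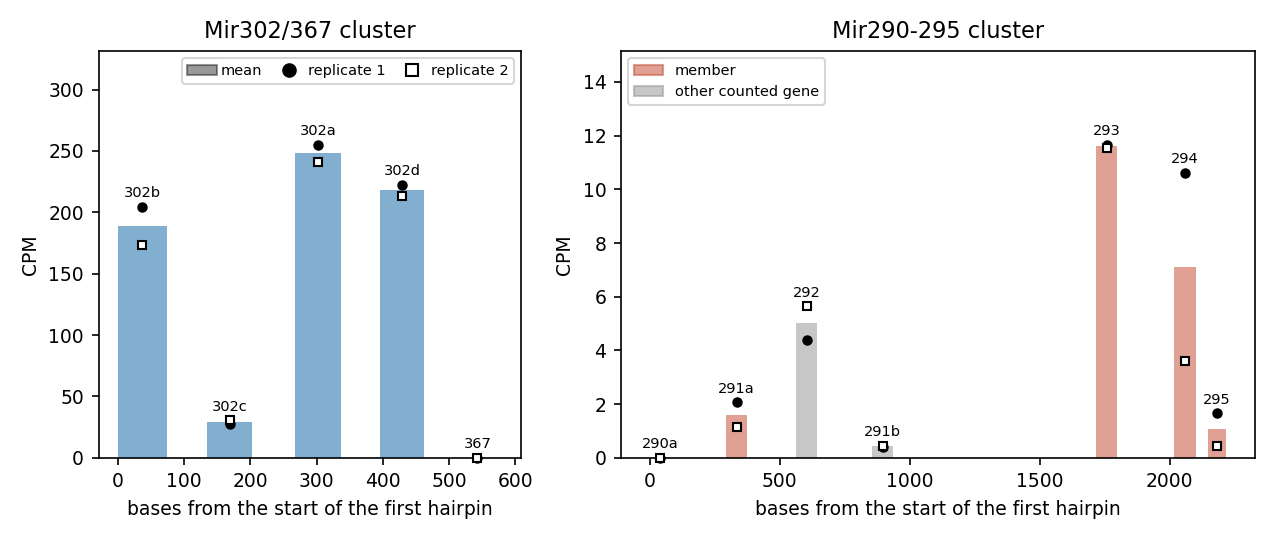
Mean CPM of each hairpin (bars, with replicate 1 as filled circles and replicate 2 as open squares) against its distance in bases from the start of the first hairpin of its cluster, with separate linear axes for the clusters and the counted genes outside the 10 in grey. Mir302c stands at 28.9 CPM between Mir302b at 189 and Mir302a at 248, and on chromosome 7 Mir293 at 11.6 and Mir294 at 7.12 stand above the members on either side.

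On chromosome 7 every member was low. Mir293 led with 56 reads in replicate 1 and 51 in replicate 2, or 11.7 and 11.5 CPM (11.6 ± 0.0918, SD, n = 2). That SD is smaller than counting error, whose 95% exact binomial interval ran from 8.81 to 15.1 CPM in replicate 1. Mir294, one of the most studied of the stem cell miRNAs, had 51 and 16 reads, or 10.6 and 3.62 CPM (7.12 ± 4.95). The interval of Mir294 in replicate 1, 7.91 to 14.0 CPM, did not overlap that in replicate 2, 2.07 to 5.87 CPM. In replicate 1 Mir293 and Mir294 were therefore close (ratio 1.10), while in replicate 2 Mir293 was 3.19 times as high.

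Mir291a and Mir295 were near the limit of counting, and Mir290a was beneath it. Mir291a had 10 reads in replicate 1 and 5 in replicate 2, or 2.08 and 1.13 CPM. It shares 20 bases of hairpin with Mir291b, which had 2 reads in each library. Mir295 had 8 and 2 reads, or 1.67 and 0.452 CPM, and its range overlapped that of Mir291a. Mir290a, the first hairpin of the cluster, had 0 reads in both libraries, with the same limits as Mir367. Mir292, the only other gene of the cluster with more than 2 reads in a library, had 21 and 25 reads (5.01 ± 0.905 CPM), between the means of Mir294 and Mir291a.

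No member had a read on the strand opposite to it in either library. Mir290b and Mir292b, which M21 places on that strand at this locus, were not analysed here. For the members, counting both strands together therefore changes only the denominator.

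Among the 371 detected genes, whose median was 115 CPM, 3 of the Mir302 genes stood near the middle and the other detected members lower. Mir302a was at rank 152, Mir302d at 159, Mir302b at 162 and Mir302c at 263. Mir293 was at rank 305 and Mir294 at 323. The genes nearest to Mir302a in mean CPM were Mir494, at 250 ± 20.6 CPM and 1.01 times its level, and Mir3071, at 239 ± 37.5 CPM and 0.964 times (SD, n = 2). Neither differed from Mir302a by more than the spread between the libraries, and likeness in level over 2 libraries of 1 tissue says nothing of a shared pattern.

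**Figure D3:**
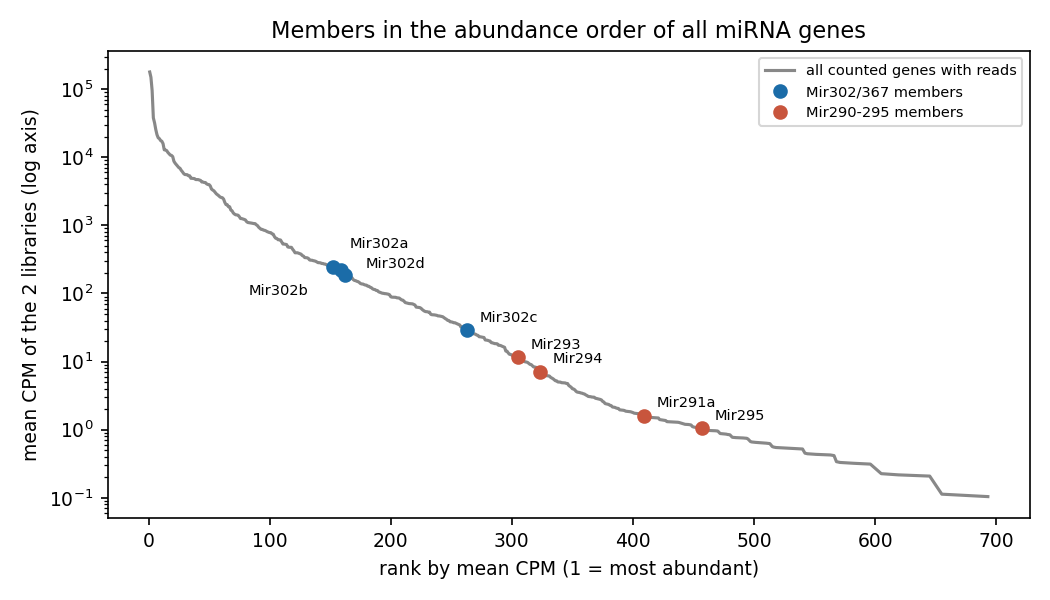
Mean CPM (log axis) of all counted miRNA genes with reads, ordered by rank, with the 8 members that had reads marked by cluster. Mir302a, Mir302d and Mir302b stand at ranks 152 to 162, Mir302c at 263 and the chromosome 7 members at 305 to 457.

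The members were compared with the families whose seeds they share or nearly share, and with the let-7 family, which was not chosen by seed. The 6 Mir17 family genes are Mir17, Mir20a, Mir20b, Mir93, Mir106a and Mir106b, which act in proliferating progenitors. They carry AAGUGC 1 base further along than the 6 members listed with it at bases 2 to 7. The Mir17 family summed to 55852 ± 6858 CPM, against 705 ± 42.4 CPM for all 10 members (SD, n = 2). The 6 members listed with AAGUGC summed to 441 CPM in replicate 1 and 392 in replicate 2. The reads of all 10 members were 1.44% of those of the Mir17 family in replicate 1 and 1.11% in replicate 2. The let-7 family, which in stem cells opposes the effects of these clusters, summed to 41038 ± 3103 CPM over its 10 genes in the files. The members' reads were 1.70% of that family's in replicate 1 and 1.74% in replicate 2. The family sum leaves out Mirlet7e and Mirlet7f-1, which had no match, and all multimapping reads. These percents therefore hold for counted reads only.

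Mir367 shares the seed AUUGCAC with 6 other counted genes, all of which were detected. By counted reads, Mir92b was the highest of them at 7777 ± 2615 CPM, followed by Mir92-1 at 3977 ± 608. Mir363 had 1060 ± 26.5 and Mir25 526 ± 28.0 CPM (SD, n = 2). The 21 bases of miR-92a-3p are the same in Mir92-1 and Mir92-2. Multimapping reads enter no gene's count, so this order and the sums with this seed hold for counted reads only. Together the genes with this seed had 78019 reads in replicate 1 and 51044 in replicate 2, of which 0 were assigned to Mir367. The 5 genes listed with the seed AAGUGCU, which are all members, had 2119 reads in replicate 1 and 1734 in replicate 2. Of these, Mir302d and Mir302b held 2050 in replicate 1 and 1711 in replicate 2. A gene's count holds the reads of both arms, so these sums are over genes and not over mature strands, and the reads of Mir302a and Mir302c are in neither.

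**Figure D4:**
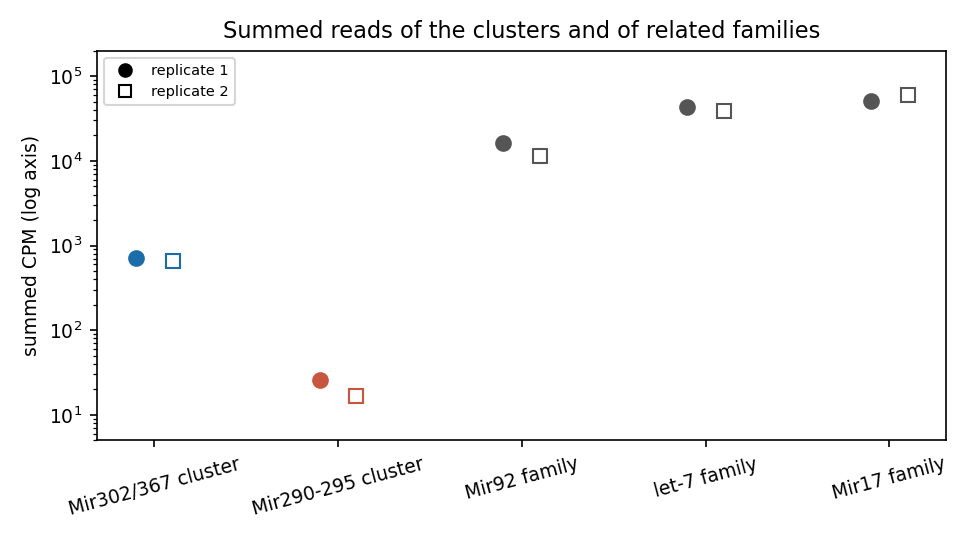
Summed CPM (log axis) of the Mir302-Mir367 cluster, the Mir290 to Mir295 cluster and the Mir92, let-7 and Mir17 families in replicate 1 (filled circles) and replicate 2 (open squares). The Mir302-Mir367 cluster lies at 709 and 659 CPM and the Mir290 to Mir295 cluster at 26.0 and 16.7 CPM, and the lowest family value is 11541 CPM, for the Mir92 family in replicate 2.

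Each detected gene was then compared between the libraries by an exact binomial test (two-sided, on totals scaled by TMM, Benjamini-Hochberg adjustment over the 371 genes). The test covers counting error only and compares the 2 pools, not conditions. Of the 6 members tested, Mir294 alone was at least 2-fold apart past the adjusted threshold of 0.05, being 2.86-fold higher in replicate 1 (log2 ratio 1.51, adjusted p = 0.000308). Over all genes tested 2.7% were called by this rule, and 2.43% were called as higher in replicate 1.

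The Mir302 genes varied little between the pools. The log2 ratio of replicate 1 over replicate 2 was 0.04 for Mir302a and 0.02 for Mir302d. It was 0.20 for Mir302b and -0.20 for Mir302c, while the median size of the log2 ratio over all detected genes was 0.24. Mir302b passed the test with no fold minimum (adjusted p = 0.00987, 1.15-fold higher in replicate 1), as did 53.1% of all genes tested (26.1% as higher in replicate 1). The common coefficient of variation, estimated from these same 2 libraries, was 16.3%. Since the test covers counting error only, passing it at 1.15-fold does not set Mir302b apart from replicate error. The same limit holds for the Mir294 call. Mir293 had a log2 ratio of -0.02, and the median over the 6 members was 0.03, against 0.00 over all genes.

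**Figure D5:**
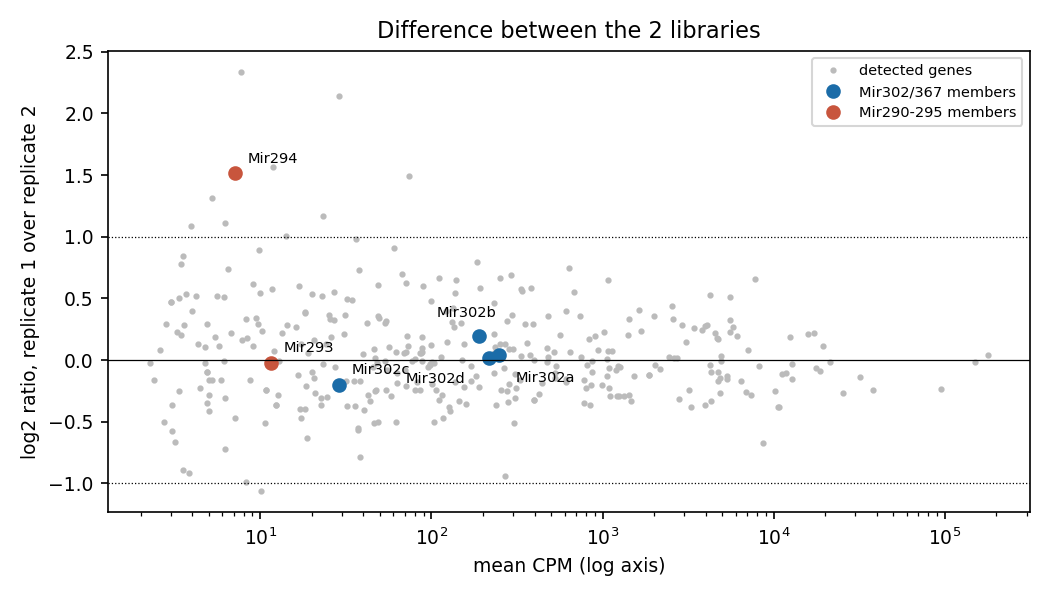
Log2 ratio of replicate 1 over replicate 2, on TMM-scaled totals, against mean CPM (log axis) for the detected genes (grey) and the 6 detected members (coloured by cluster), with dotted lines at 2-fold. Mir294 lies at 1.51 and the other 5 members between -0.20 and 0.20.

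The tissue label and other cell types were checked with markers. Of the 10 neural tube marker genes in the files 8 were detected, with a summed level of 343628 CPM in replicate 1 and 329613 in replicate 2, nearly all from Mir10a and Mir10b, which lie in Hox clusters and are not specific to neural cells. Of the other genes on this list, Mir219a-2 had 31648 reads in replicate 1 and 19897 in replicate 2, and Mir137 had 12203 and 13609. Mir219a-1 had 1922 and 1726, Mir9-3 1288 and 1318, Mir124a-2 52 and 38, and Mir9-2 26 and 11. Mir124a-1 and Mir124a-3 were not detected. Mir9 and Mir124a each have several gene copies with the same mature sequence, whose multimapping reads are not counted. The endothelial gene Mir126a had 20304 and 18258 CPM, and the 7 epithelial genes, all detected, summed to 2194 and 2254 CPM. The 7 muscle genes in the files, of which 4 were detected and Mir133a-1 and Mir133a-2 had no read, summed to 882 and 520 CPM. The erythroid genes (3 of 3 detected) summed to 112 and 102 CPM, the leukocyte genes (3 of 3 in the files) to 349 and 303 CPM, and the liver gene Mir122 had 32.3 and 14.0 CPM. The muscle sum and Mir122 were higher in replicate 1, as Mir294 was, and their part in its difference was not tested.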

How the data were processed

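MicroRNA sequencing was done on 2 libraries (size range under 30, per the labels). The authors deposited raw counts of reads for each miRNA gene, for both strands together and for each strand. Per the descriptions deposited with them, the counts were made on mm10 with annotation M4; which aligner and counter were used is not given in the sources used here. Of the stranded columns, the one with more reads in total was read as a gene's own strand. The rows that name no gene were left out; multimapping reads made up 27.0% of reads in replicate 1 and 28.6% in replicate 2.

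Symbols and coordinates came from GENCODE M21 (1894 of 1973 identifiers matched, and for 10 of 10 members with version), and sequences from RefSeq, where all 10 members had a mature arm. Intervals are exact binomial (Clopper-Pearson, 95%); they and the limits of 3 reads cover counting error only, since amplified reads with no molecular identifiers are not separate molecules. TMM factors and the coefficient of variation came from edgeR 4.0.16 (R 4.3.3). Python 3.11.15, numpy 2.4.6, pandas 2.3.3, scipy 1.17.1 and matplotlib 3.10.9 were used. With 1 group, edgeR's quasi-likelihood test and DESeq2 had no contrast and were not run. The exact binomial test was tested on simulated data.

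The members and lists were chosen with earlier results of these data known. Named genes are the members, up to 4 other genes per member seed with the highest mean CPM, the other counted genes of the clusters, the genes next above and below Mir302a in mean CPM, and host or neighbouring genes. Of 12 let-7 entries 10 matched, of 11 neural tube entries 10, of 8 muscle entries 7 and of 4 leukocyte entries 3.

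Alternatives were both strands, each replicate left out, other denominators and scalings, other count minimums, no fold minimum, shared hairpins left out and a seed of bases 2 to 7.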

Additional observations from a re-analysis of the deposited data

How the results depend on the processing

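Counting both strands, TMM-scaled totals and median-of-ratios size factors moved the summed level of the members, and that of each single member but Mir293, by less than the SD between the libraries; Mir293 was 11.4 CPM with both strands. With multimapping reads added to the denominator the members summed to 424 CPM, the Mir302-Mir367 cluster held 0.0411% of reads and the Mir290 to Mir295 cluster 0.00128%. With Mir10a and Mir10b out of the denominator these values were 1049 CPM, 0.102% and 0.00319%. Both changes scale all genes of a library alike and leave the order of members unchanged. From 1 replicate alone, the sum was 675 to 735 CPM, the shares 0.0659% to 0.0709% and 0.00167% to 0.00260%, and the cluster ratio 27.2 to 39.4. Mir294 was then 3.62 to 10.6 CPM and Mir295 0.452 to 1.67 CPM. The cluster ratio was 13.0 without the members that share 20 bases with another hairpin (Mir302a, Mir302b and Mir291a), which removes the highest Mir302 gene, 48.1 without Mir294 and 25.9 with Mir292 and Mir291b. With a seed of bases 2 to 7, members held 58.1% of the reads of genes listed with AAGUGC there. Mir302a and Mir292 are not among these genes, since their 3p arms were not analysed. Other counted genes whose arms the RefSeq table lacks would be missing too, whatever their reads. The percent therefore holds for the listed arms only and is not the members' share of all reads with AAGUGC. Members detected numbered 8 with at least 1 read in both libraries and 4 with at least 100. Of all genes, 2 differed between the libraries with at least 100 reads in both, a minimum Mir294 does not reach, and 197 with no fold minimum. Mir294 was called under each of the other settings, at 2.75-fold to 2.94-fold.

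Depth limits Mir290a, Mir291a, Mir295 and Mir367: each had 10 reads or fewer in a library, and a count of 0 allows up to 0.625 CPM in replicate 1 and 0.678 CPM in replicate 2.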

Other observations

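The 6 bases AAGUGC, common to the seeds of both clusters, stood at bases 2 to 7 in 8 of the 1738 mature arms of the RefSeq table (0.460%) and at bases 3 to 8 in as many. The first set covered 6 members, Mir350 and Mir291b. The 3p arms of Mir302a and of Mir292, which is not a member, were not analysed. Other genes whose arms the RefSeq table lacks would be missing from both sets too. Mir350, which was noticed after its values were seen, had 1218 reads in replicate 1 and 1557 in replicate 2, or 254 and 352 CPM (303 ± 69.6, SD, n = 2). It was thus above Mir302d, at 222 and 213 CPM, in both libraries. The Mir350 arm listed with AAGUGC has a seed that differs from that of Mir302d in its last base. Each count holds the reads of both arms, so this compares genes and not mature strands. Mir302d and Mir302b had 2050 of the first set's 3339 reads in replicate 1 and 1711 of 3293 in replicate 2. In the set with the bases 1 position later, Mir17 had 25531 ± 2885 CPM, Mir20a 10738 ± 1772, Mir93 10190 ± 1049 and Mir106b 7392 ± 884 CPM, while Mir105 and Mir6383 had no read. The letters in this window say nothing of which mRNAs were bound.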
